A study of Mus musculus with 15 samples.

Results

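The 42 genes described here belong to the uptake and breakdown of glucose, the response to low oxygen and the respiration of mitochondria. They were chosen by name among the 26366 genes of a mouse count table, and all 42 were present, each on 1 row. The first set holds 22 genes of glycolysis and of the hypoxia response, from Slc2a1 to Slc16a3, and the other 20 nuclear genes of the respiratory chain, from Ndufs1 to Cox7a2. The RNA came from eosinophils, granulocytes of type 2 immunity, of 7 wild-type C57/BL6 mice. All mice had received 4-NQO, a carcinogen of the mouth and esophagus, for 8 weeks and then propylene glycol for 8 weeks, and were at the stage labelled pre-cancer, so no group is untreated. Cells of the 7 esophagus libraries (F mice 1, 2, 5 and 6, and M mice 3, 7 and 8) and of the 4 colon libraries (F mice 5 and 6, and M mice 7 and 8) were taken from lamina propria by immunomagnetic positive selection. The 4 bone marrow libraries came from mice 5 to 8 and are described as bone marrow-derived, without a word on whether the cells were cultured. Sex and cage cannot be told apart, because cage 1 housed the F mice and cage 2 the M mice.

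Glycolysis splits glucose into pyruvate in the cytosol, and lactate dehydrogenase turns pyruvate into lactate when it is not passed to mitochondria. When oxygen is scarce, the transcription factor HIF is no longer hydroxylated and degraded, and it raises glucose transporters, glycolytic enzymes and genes such as Vegfa by binding a short core sequence in their promoters. The respiratory chain takes electrons from NADH and succinate through complexes I to IV to oxygen, and its subunits come partly from the nucleus and partly from mitochondrial DNA, so their production has to be matched.

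Depth was low. Total counts lay between 85677 and 371218 in the esophagus libraries, between 227179 and 612386 in those of colon and between 189060 and 286166 in those of bone marrow. Levels are given as CPM, counts per 1e6 counts in the genes that passed the filter on low counts, with TMM scaling. With 0 counts, a level of up to 3 counts remains possible, or 6.86 to 36.0 CPM depending on the library. Of the single values of the glycolysis and hypoxia genes, 28.6% were 0 in esophagus libraries, 3.41% in colon and 11.4% in marrow. The respiratory chain genes were at 0 in 56.4%, 7.5% and 21.3% of their values, beside 44.1%, 6.46% and 14.8% for 20242 other protein-coding genes. The markers of eosinophils were sparse as well. Epx, the eosinophil peroxidase gene, had 0 counts in all 7 esophagus libraries, 3, 0, 9 and 4 counts in the colon and 3, 5, 3 and 2 counts in the bone marrow of mice 5 to 8. The markers were not alike. Ccr3, another of them, had 0, 21, 11, 15, 16, 23 and 18 counts in the esophagus libraries. It had 17, 15, 28 and 31 counts in colon and 8, 9, 1 and 4 in marrow. The summed CPM of 10 eosinophil markers was 109 to 595 over the esophagus libraries, 130 to 250 over those of colon and 86.7 to 247 over those of marrow. In these bulk samples, fewer cells of a type and less RNA per cell cannot be told apart. The 3 libraries that stood apart did so by their share of counts from mitochondrially encoded genes, which was 7.52% in the colon of mouse 8, 3.87% in the esophagus of mouse 1 and 2.84% in that of mouse 3, and 0.298% to 1.0% in the others.

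**Figure D1:**
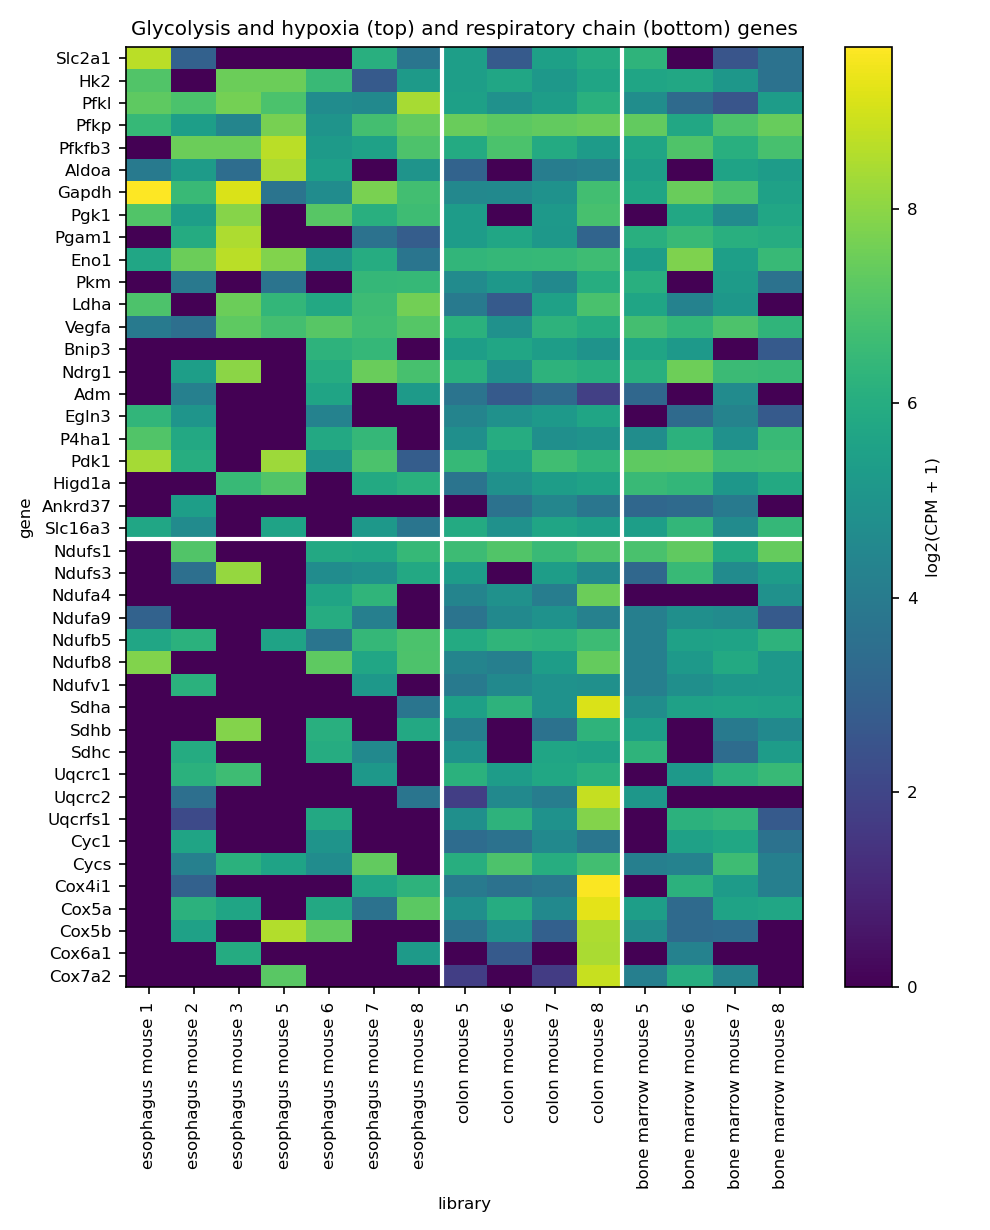
Level of each of the 42 genes (rows) in each of the 15 libraries (columns), as log2(CPM + 1), with a colour scale from dark at 0 to yellow at the highest level; white lines part the gene sets and the tissues. The bright block at the lower right of the colon columns is the colon library of mouse 8, where Cox4i1 reached 782 CPM and Sdha 561 CPM, and the dark cells on the left are the values at 0 of the esophagus libraries.

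The clearest pattern in these genes was in a single library. In the colon of mouse 8, 11 of the 20 respiratory chain genes (55%) were at least 5-fold above the other 3 colon libraries pooled, beside 3.47% of all genes with a count and 0 of the 22 glycolysis and hypoxia genes. The median ratio was 6.12 for the respiratory chain genes, 1.18 for the glycolysis and hypoxia genes and 0.887 for all genes. For 8 of the 20 respiratory chain genes (40%) this library was the highest of all 15, beside 6.09% of all genes. With 1 library on one side, these ratios have no replicate check, and their intervals are exact 95% intervals that cover counting error only.

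The ratios differed between the complexes. Complex IV, cytochrome c oxidase, which hands the electrons to oxygen, stood at 19.5 to 354 in all 5 of its genes. Cox4i1, the gene of a large regulatory subunit of that complex, was at 14.7, 11.4, 13.7 and 782 CPM in the colon of mice 5, 6, 7 and 8, which is 307 counts against 14 in the other 3 libraries together, a ratio of 57.1 (33.5 to 106). It was at 0, 73.1, 38.5 and 17.1 CPM in bone marrow and at 0 to 75.3 CPM, with a median of 0, in esophagus, so that the colon of mouse 8 lay far above every other library. Cox5a, of the same complex, was at 26.9, 62.7, 22.9 and 612 CPM in colon, a ratio of 19.5 (13.5 to 29.2). Its levels in bone marrow were 42.3, 9.14, 48.1 and 51.3 CPM, and in esophagus 0 to 151 CPM with a median of 50.4. The small subunit genes Cox6a1 and Cox7a2 were almost unseen elsewhere in colon. Cox6a1 had 0, 1, 0 and 136 counts there, a ratio of 354 (62.5 to 14080), and Cox7a2 had 1, 0, 1 and 183 counts, a ratio of 238 (65.0 to 1981). In bone marrow Cox6a1 was at 0, 18.3, 0 and 0 CPM and Cox7a2 at 16.9, 64.0, 19.3 and 0 CPM, and in esophagus their highest values were 60.5 and 144 CPM, with medians of 0. Cox5b had 140 counts against 13, a ratio of 28.0 (15.9 to 53.9), but was slightly higher in the esophagus of mouse 5, at 372 CPM against 357 CPM.

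Complex II, succinate dehydrogenase, which also serves the citric acid cycle, was high in part. Sdha, its flavoprotein subunit, was at 44.1, 74.1, 29.7 and 561 CPM in colon, a ratio of 13.0 (9.38 to 18.4). It was at 25.4, 45.7, 48.1 and 45.6 CPM in bone marrow, and in esophagus at 0 in every library but that of mouse 8, at 12.6 CPM. Sdhb, the iron-sulfur subunit, was at 17.1, 0, 11.4 and 76.4 CPM in colon, a ratio of 6.504 (3.23 to 13.9), and Sdhc, a membrane anchor, had a ratio of 1.38 (0.732 to 2.51). In complex III, which passes electrons to cytochrome c, Uqcrc2 had 174 counts against 12, a ratio of 37.7 (21.1 to 74.4), and Uqcrfs1, the Rieske iron-sulfur protein gene, a ratio of 6.40 (4.32 to 9.65). The other core subunit gene, Uqcrc1, was at 1.19 (0.726 to 1.91), and Cyc1, the cytochrome c1 gene, at 0.813 (0.233 to 2.32). Complex I, the entry for NADH, had 2 of its 7 genes past 5-fold. These were Ndufa4, at 9.24 (5.56 to 16.02), whose protein has also been assigned to complex IV, and Ndufb8, at 5.83 (3.71 to 9.37). Ndufs1, Ndufs3, Ndufa9, Ndufb5 and Ndufv1 lay at 0.689 to 1.41, and the cytochrome c gene Cycs at 1.39 (0.925 to 2.05). The 11 genes past 5-fold had exonic lengths of 702 to 4126 bases, with a median of 1587, and the other 9 had 2101 to 8086 bases, with a median of 3250.

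**Figure D2:**
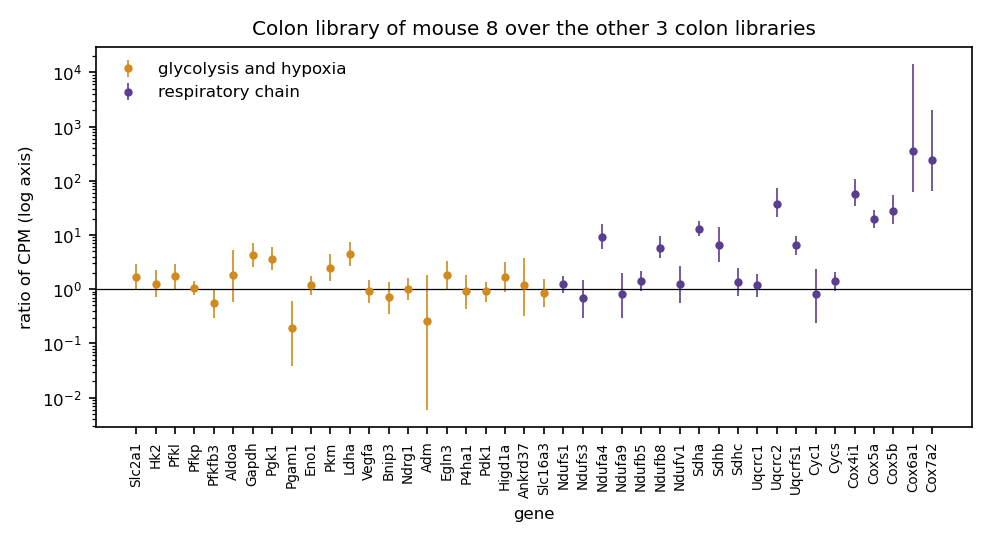
Ratio of the CPM in the colon library of mouse 8 to that of the other 3 colon libraries together, on a log axis, for each of the 42 genes; bars are exact 95% intervals of counting error. The glycolysis and hypoxia genes (orange) stay between 0.195 and 4.43, while 11 respiratory chain genes (purple) lie at 5.83 to 354.

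The glycolysis and hypoxia genes of that library lay nearer to the other colon libraries. Ldha was highest among the ratios, at 4.43 (2.70 to 7.42), followed by Gapdh at 4.20 (2.52 to 7.14), Pgk1 at 3.66 (2.27 to 5.95) and Pkm at 2.50 (1.39 to 4.51). Pgam1, the phosphoglycerate mutase gene, was lower, with 3 counts against 40, a ratio of 0.195 (0.0386 to 0.613). Hypoxia genes such as Vegfa, at 0.932 (0.559 to 1.51), Ndrg1, at 1.02 (0.625 to 1.64), and Pdk1, at 0.906 (0.582 to 1.38), had intervals that include 1.

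Other nuclear genes of the same complexes behaved in part alike. Past 5-fold were 12 of 29 other complex I genes, 9 of 12 other genes of complexes II to IV and 7 of 16 ATP synthase genes, beside 3 of 26 other glycolysis genes, 1 of 27 other hypoxia genes and 0 of 9 regulators of mitochondrial biogenesis. Housekeeping genes were past it in 6 of 10 cases (60%), with a median ratio of 5.96 and a sum of 2765 CPM against 461.8 to 541.3 CPM. Transcripts of mitochondrial DNA were at 117300 CPM there and at 3780 to 12990 CPM in the other colon libraries. Some other gene lists moved with them and others did not. Genes of cytosolic ribosomal proteins summed to 19840 CPM against 2189 to 2264 CPM. The 8 markers of colon epithelium summed to 1654 CPM against 137 to 201 CPM, and 6 of the 8 were highest of all libraries there. Past 5-fold were 4 of the 8. Krt8 had 266 counts against 1, 1 and 2, while Vil1 was not raised, with 2 counts against 3, 1 and 3. The 10 eosinophil markers summed to 250 CPM against 130 to 210 CPM, but their median ratio was 0.848. Only 1 of the 10 was past 5-fold, Ear2, with 24 counts against 0, 3 and 3. Markers of muscle and macrophages were above the other colon libraries, at 214 against 114 to 151 CPM and 268 against 188 to 252 CPM. Those of squamous epithelium and neutrophils were below them, at 209 against 238 to 260 CPM and 81.5 against 110 to 135 CPM. Erythroid and B and T cell markers lay within their range. The part of epithelial or other RNA in the respiratory chain ratios was not tested. In the same mouse, the summed CPM of the 20 respiratory chain genes was 734 in esophagus and 684 in bone marrow, within the range of the other libraries of those tissues, against 4745 in colon.

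Promoters of 3 of the genes past 5-fold and of Ldha are shown, because regulators of both gene sets have known short motifs. They were taken from RefSeq (GRCm38.p6, 250 bases before to 50 after the annotated start, 5′ to 3′ on the gene's strand). Ldha was not past 5-fold and had the highest ratio of its set. Its other window, not shown, held 0 matches to ACGTG and 2 to GCGTG. In Sdha, Cox6a1 and Cox5a, capitals mark the motif of NRF1, an activator of nuclear respiratory genes, spelled GCGCA, any base, then GCGC, and the CCAAT box, each on either strand. In Ldha, capitals mark the hypoxia response cores ACGTG and GCGTG on either strand, and CACGTG holds the former on both strands, overlapping.
Sdha (chr13:74350191-74350490, minus strand): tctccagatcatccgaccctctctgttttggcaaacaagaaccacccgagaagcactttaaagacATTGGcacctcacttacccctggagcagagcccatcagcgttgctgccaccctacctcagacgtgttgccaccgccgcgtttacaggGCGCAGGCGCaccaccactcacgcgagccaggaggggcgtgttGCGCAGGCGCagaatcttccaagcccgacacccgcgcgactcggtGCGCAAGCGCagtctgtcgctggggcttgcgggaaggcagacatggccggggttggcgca
Cox6a1 (chr5:115348909-115349208, minus strand): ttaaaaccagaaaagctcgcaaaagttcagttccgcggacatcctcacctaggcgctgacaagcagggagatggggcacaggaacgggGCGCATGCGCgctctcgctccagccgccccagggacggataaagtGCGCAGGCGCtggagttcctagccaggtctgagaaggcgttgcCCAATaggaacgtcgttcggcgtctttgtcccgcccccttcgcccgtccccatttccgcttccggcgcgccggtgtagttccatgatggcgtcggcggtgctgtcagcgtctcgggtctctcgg
Cox5a (chr9:57520982-57521281, plus strand): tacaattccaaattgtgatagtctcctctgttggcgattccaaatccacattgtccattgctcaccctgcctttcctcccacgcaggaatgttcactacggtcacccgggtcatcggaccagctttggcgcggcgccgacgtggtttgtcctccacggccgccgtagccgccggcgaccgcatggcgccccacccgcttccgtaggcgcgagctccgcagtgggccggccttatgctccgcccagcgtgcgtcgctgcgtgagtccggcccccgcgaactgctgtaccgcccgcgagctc
Ldha (chr7:46845554-46845853, plus strand): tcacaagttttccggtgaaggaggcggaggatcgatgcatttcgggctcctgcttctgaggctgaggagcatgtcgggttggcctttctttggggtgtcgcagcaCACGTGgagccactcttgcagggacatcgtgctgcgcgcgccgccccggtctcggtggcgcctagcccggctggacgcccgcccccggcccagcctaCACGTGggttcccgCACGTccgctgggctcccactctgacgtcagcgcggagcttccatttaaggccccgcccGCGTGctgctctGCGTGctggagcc
The Sdha window held 3 matches to the NRF1 motif and 1 to CCAAT, the Cox6a1 window 2 and 1, and the Cox5a window neither, with ratios of 13.0, 354 and 19.5 in the colon of mouse 8. Of the 11 respiratory chain genes past 5-fold, 9 had a promoter in the table, and 2 of those 9 windows, the Sdha and Cox6a1 windows shown, held the NRF1 motif. CCAAT was in 3 of the 9, and ACGTG or GCGTG in 7. Over the 15 windows of respiratory chain genes 20% held the NRF1 motif and over the 30 windows of glycolysis and hypoxia genes 16.7%, beside 4.6% of all 32851 windows. CCAAT was in 26.7%, 50% and 37.4% of them. ACGTG or GCGTG was found in 66.7% of respiratory chain windows, 86.7% of glycolysis and hypoxia windows and 43.8% of all windows. The 30 glycolysis and hypoxia windows came from 21 genes. Some windows of Eno1 and Aldoa overlapped, so the same motif copy can be counted more than once. A match describes these letters only.

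Between tissues, the glycolysis and hypoxia genes were most uneven in esophagus. Their summed CPM was 917 to 2822 there (median 1594, 1790 ± 729, SD, n = 7), 872 to 1343 in colon (1074 ± 201, n = 4) and 1079 to 1518 in bone marrow (1252 ± 189, n = 4). The esophagus values overlapped with both other tissues, and the highest were in mice 3, 1 and 5, at 2822, 2510 and 2183 CPM. Mice 1 and 3 had the high mitochondrial shares, and without them the esophagus libraries gave 1440 ± 498 (n = 5). Of the 22 genes, 21 (95.5%) had their highest value in an esophagus library, beside 60.2% of all genes, and 0 in colon, beside 14.2%. The esophagus has 46.7% of the libraries and the shallowest of them, and the part of depth in this share was not tested. The respiratory chain genes summed to 284 to 818 CPM in esophagus (641 ± 179, n = 7) and 473 to 777 CPM in bone marrow (669 ± 136, n = 4). In colon they were at 585, 758 and 647 CPM in mice 5, 6 and 7 and at 4745 CPM in mouse 8, a mean of 1684 ± 2042 (n = 4) and of 664 ± 87.6 (n = 3) without it. Outside that library, the respiratory chain sums of the 3 tissues overlapped.

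**Figure D3:**
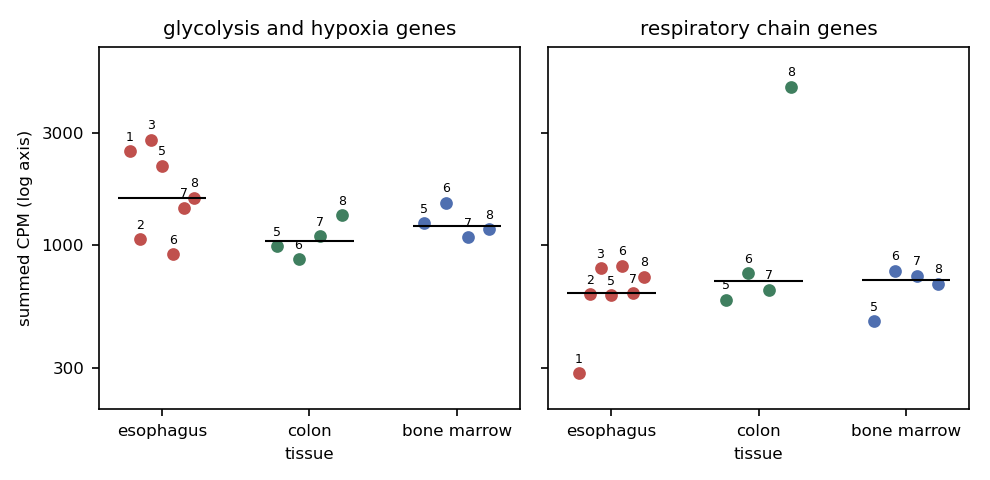
Summed CPM of the 22 glycolysis and hypoxia genes (left) and of the 20 respiratory chain genes (right) in each library, on a log axis, by tissue; numbers name the mouse and bars the median. Esophagus values of the left panel spread from 917 to 2822 CPM, and in the right panel the colon of mouse 8 stands alone at 4745 CPM.

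The filter on low counts kept 15 of the 22 glycolysis and hypoxia genes and 8 of the 20 respiratory chain genes. A gene that passed through 1 tissue alone had to be higher there, so the counts below describe the tested genes only. In edgeR's quasi-likelihood test, adjusted by Benjamini-Hochberg over all 10357 genes tested, 0 of the 23 tested genes were called in any tissue comparison at an adjusted p under 0.05. Of all tested genes, 0.83% were called between esophagus and bone marrow, 0.0193% higher in esophagus and 0.811% lower. Between colon and bone marrow 0.434% were called, 0% higher in colon and 0.434% lower. Between esophagus and colon 0.0869% were called, 0.0676% higher in esophagus and 0.0193% lower. At an unadjusted p under 0.05, 1 member was higher in esophagus than in bone marrow (0.686% of all genes) and 0 lower (3.9%), 1 was higher in colon than in bone marrow (0.512%) and 0 lower (1.6%), and 1 was higher (0.579%) and 2 lower (2.08%) in esophagus than in colon. DESeq2 called 1 member, Pfkl, higher in esophagus against bone marrow (0.0772% of all genes higher and 0.946% lower) and 0 in the other comparisons, and limma voom with quality weights called 0.

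In esophagus against colon, 13 of the 15 tested glycolysis and hypoxia genes had a positive log2 fold change, with a median of 0.66, and 2 of the 8 respiratory chain genes, with a median of -0.97, beside 36.95% positive and a median of -0.21 for all tested genes. Other glycolysis genes did not share that lean, with 5 of 13 positive and a median of -0.08, nor did other hypoxia genes, with 6 of 21 and -0.22. Against bone marrow, the glycolysis and hypoxia medians were -0.07 for esophagus and -0.40 for colon, with 7 and 5 of 15 positive, and the respiratory chain medians 0.23 and 0.72, with 5 and 7 of 8 positive. All tested genes had medians of -0.18 and 0.02, with 40.5% and 51.8% positive. The comparisons share libraries, and these medians carry no test. Without the colon of mouse 8, esophagus against colon gave 14 of 16 glycolysis and hypoxia genes positive (median 0.70) and 2 of 6 respiratory chain genes (median -0.64), while the respiratory chain median of colon against bone marrow was 0.04, with 3 of 6 positive. Without the 3 libraries of high mitochondrial share the esophagus against colon medians were 0.57 and -0.67. With limma quality weights 5 of 15 glycolysis and hypoxia genes were positive there (median -0.13, with -0.56 for all genes) and 0 of 8 respiratory chain genes (median -0.93). The same weights turned the respiratory chain median of esophagus against bone marrow to -1.02, with 0 of 8 positive, and gave 0.11 with 4 of 8 for colon against bone marrow. The glycolysis and hypoxia median of esophagus against bone marrow was 0.41 with library size alone, with 13 of 15 positive beside 60.85% of all tested genes. It was 0.04 with upper-quartile scaling, 0.15 with DESeq2 and 0.17 without the colon of mouse 8. With quality weights it was -0.66, with 4 of 15 positive beside 25.17% of all tested genes, so its sign differed between settings.

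**Figure D4:**
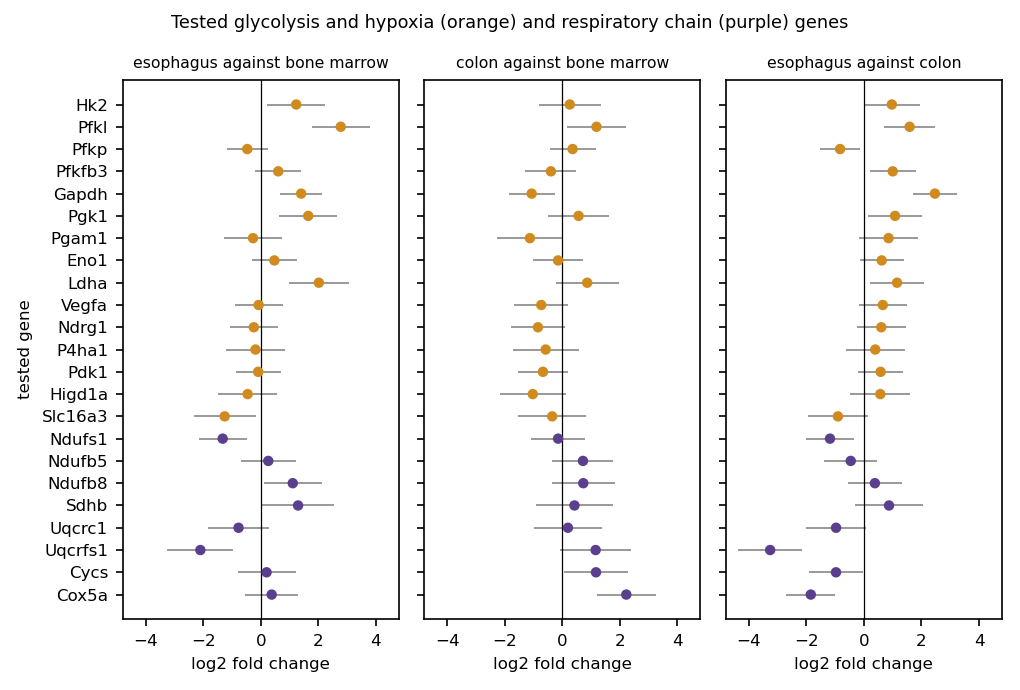
Log2 fold changes of the 23 tested genes in the 3 tissue comparisons from the edgeR fit, with bars of 1 standard error; orange marks glycolysis and hypoxia genes and purple respiratory chain genes. Most bars reach or cross 0, the values farthest from it being Pfkl at 2.78 on the left, Cox5a at 2.22 in the middle, and Gapdh at 2.47 and Uqcrfs1 at -3.26 on the right.

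At the entry of glycolysis, Slc2a1, the main glucose importer of many cells, and Hk2, the hexokinase that traps glucose, were detected unevenly. Slc2a1 was at 401 CPM in the esophagus of mouse 1 and at 0 to 68.2 CPM in the other esophagus libraries, and did not pass the filter. Hk2 was at 0 to 181 CPM in esophagus (median 93.0), 34.3 to 51.3 CPM in colon and 11.4 to 54.8 CPM in marrow. Phosphofructokinase, the committed step, has several genes. Pfkl, its liver form, was at 22.7 to 339 CPM in esophagus (median 120), at 44.1, 28.5, 41.2 and 68.8 CPM in the colon of mice 5 to 8 and at 25.4, 9.14, 4.82 and 39.9 CPM in bone marrow. All bone marrow libraries lay below 5 of the 7 esophagus libraries, while those of mice 6 and 7 overlapped with them. In edgeR the esophagus exceeded bone marrow by 2.78 on the log2 scale (SE 1.002, adjusted p = 0.342) and colon by 1.59 (SE 0.89, adjusted p = 1.0). DESeq2 gave 2.98 and an adjusted p of 0.0254 for the former, the lowest over all settings, whose adjusted p ran up to 1.0. Pfkp, the platelet form, was ordered otherwise, with means of 93.7 CPM in esophagus, 164 CPM in colon and 128 CPM in marrow beside 140, 45.6 and 19.8 CPM for Pfkl. It was at 20.2 to 204 CPM in esophagus (median 87.6), at 174, 148, 162 and 173 CPM in colon and at 161, 54.8, 125 and 171 CPM in marrow, with log2 fold changes in edgeR of -0.83 (SE 0.70) against colon and -0.47 (SE 0.72) against bone marrow. The colon values were close together, and the other tissues overlapped with them. Pfkfb3, which makes an activator of phosphofructokinase, was at 0 to 408 CPM in esophagus, 38.2 to 120 CPM in colon and 50.7 to 128 CPM in marrow. Aldoa, the aldolase of muscle and most cells, was at 348 CPM in the esophagus of mouse 5 and at most 48.1 CPM in any other library.

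In the lower, energy-yielding steps, Gapdh had the largest log2 fold change in esophagus against colon, but not in the other 2 comparisons. Gapdh, glyceraldehyde-3-phosphate dehydrogenase, was at 12 to 810 CPM in esophagus (median 107), with 810 CPM in mouse 1 and 554 CPM in mouse 3. In the colon of mice 5 to 8 it was at 22.04, 22.8, 29.7 and 107 CPM and in bone marrow at 50.7, 174, 120 and 45.6 CPM. Esophagus overlapped with both, since mice 5 and 6 had 12 and 24.8 CPM. In edgeR the esophagus exceeded colon by 2.47 on the log2 scale (SE 0.76, adjusted p = 0.498), with 1.83 without the esophagus of mouse 1 and 3.28 without the colon of mouse 8. Within mice 5 to 8, which gave all 3 tissues, it was 0.96 with no replicate block (adjusted p = 0.961) and 0.70 when blocked by mouse (adjusted p = 0.941), and over all libraries it was 0.77 with a fixed mouse term and 1.63 in limma voom with quality weights. Against bone marrow, esophagus was at 1.40 (SE 0.73) and colon at -1.07 (SE 0.80). The table holds processed pseudogenes of Gapdh, and Gapdh-ps16 had 0 counts in all esophagus libraries, 46, 0, 9 and 0 in colon and 6, 9, 14 and 19 in marrow, so reads of Gapdh may be split between the copies. Pgk1, the phosphoglycerate kinase that makes ATP, was at 0 to 242 CPM in esophagus (median 100), at 39.2, 0, 36.6 and 115 CPM in colon and at 0, 54.8, 24.1 and 51.3 CPM in marrow. All 3 tissues overlapped. Pgam1 was at 0 to 353 CPM in esophagus, with a median of 6.28 and the highest value in mouse 3. It was at 39.2, 51.3, 34.3 and 7.64 CPM in colon, all below the 67.6, 91.4, 67.4 and 62.7 CPM of bone marrow, or -1.13 on the log2 scale (SE 1.14, adjusted p = 1.0 in edgeR). Of the 42 members, tested or not, Pgam1 and Vegfa were lower in colon than in bone marrow with no overlap, as were 2.08% of the 26366 genes with a count, and Egln3 was higher with none, as were 2.84%. Sdha was lower in esophagus with no overlap than in bone marrow (2.15% of all genes) and than in colon (3.03%). No overlap with esophagus higher was found for 0 members, beside 0.0265% of all genes against bone marrow and 0.0228% against colon. Without the colon of mouse 8, Gapdh joined Pgam1 and Vegfa below bone marrow (2.98% of all genes), Egln3 stayed above it (4.77%), and esophagus against colon held Sdha lower (4.72%) and 0 members higher (0.0304%). Eno1, an enolase, was at 12.6 to 403 CPM in esophagus, 80.8 to 99.4 CPM in colon and 42.3 to 219 CPM in marrow. Pkm, the pyruvate kinase of most tissues, was low everywhere, with at most 87.9 CPM in any library.

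At the fork between lactate and the mitochondrion, Ldha, the lactate dehydrogenase gene, was at 0 to 195 CPM in esophagus (median 96.7), at 14.7, 5.70, 45.7 and 117 CPM in colon and at 50.7, 18.3, 33.7 and 0 CPM in marrow. All bone marrow libraries lay below 6 of the 7 esophagus libraries, the exception being mouse 2, at 0. In edgeR the esophagus exceeded bone marrow by 2.02 on the log2 scale (SE 1.04, adjusted p = 1.0). Slc16a3, a lactate exporter, was at 0 to 51.1 CPM in esophagus (median 24.6), at 58.8, 28.5, 50.3 and 43.3 CPM in colon and at 42.3, 82.3, 24.1 and 85.5 CPM in marrow. Its log2 fold changes for esophagus were -1.25 (SE 1.07) against bone marrow and -0.90 (SE 1.05) against colon, and the tissues overlapped. Pdk1, a kinase that limits the oxidation of pyruvate in mitochondria, was at 0 to 328 CPM in esophagus, 45.6 to 103 CPM in colon and 101.1 to 155 CPM in marrow.

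Among the remaining hypoxia genes, Vegfa and Egln3 did not overlap between colon and bone marrow. Vegfa, the vessel growth factor, was at 10.6 to 151 CPM in esophagus (median 108), at 71.0, 28.5, 75.4 and 61.2 CPM in colon and at 110, 82.3, 125 and 79.8 CPM in marrow, with a log2 fold change of -0.73 for colon against bone marrow. Ndrg1, a stress-response gene, reached 252 CPM in the esophagus of mouse 3 and was at 28.5 to 75.4 CPM in colon and 67.6 to 183 CPM in marrow. P4ha1, a collagen prolyl hydroxylase, and Higd1a, a small mitochondrial protein, were at most 131 and 132 CPM. Bnip3, which marks mitochondria for removal, had 0 counts in 5 of the 7 esophagus libraries and was at 74.4 and 85.3 CPM in mice 6 and 7, against 30.6 to 51.3 CPM in all colon libraries. Egln3, a HIF prolyl hydroxylase, was at 19.6, 28.5, 36.6 and 51.0 CPM in colon, at 0, 9.14, 19.3 and 5.70 CPM in marrow and at 0 to 80.2 CPM in esophagus. The nearest colon and bone marrow values rested on 8 and 4 counts. The peptide hormone gene Adm and the hypoxia target Ankrd37 stayed under 50 CPM in every library.

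Among the tested respiratory chain genes, Uqcrfs1 and Cox5a were lower in esophagus than in colon at an unadjusted p under 0.05. Uqcrfs1 was at 0 CPM in 5 esophagus libraries and at 3.52 and 55.8 CPM in mice 2 and 6, at 26.9, 74.1, 29.7 and 232 CPM in colon and at 0, 73.1, 81.8 and 5.70 CPM in marrow. Only mouse 6 of the esophagus libraries overlapped with colon. The log2 fold change was -3.26 against colon (SE 1.12, adjusted p = 0.775 in edgeR) and -2.10 against bone marrow (SE 1.15). Cox5a gave 2.22 for colon against bone marrow (SE 1.04, adjusted p = 1.0 in edgeR) and -1.85 for esophagus against colon (SE 0.85, adjusted p = 1.0). Both rested on the colon of mouse 8, without which they were -0.04 and 0.39. Ndufs1, a core iron-sulfur subunit gene of complex I, was detected in every colon and bone marrow library. It was at 98.0, 131, 93.8 and 125 CPM in colon, at 118, 155, 57.8 and 165 CPM in bone marrow and at 0 to 130 CPM in esophagus (median 51.2, with 0 in mice 1, 3 and 5), with log2 fold changes for esophagus of -1.32 (SE 0.84) against bone marrow and -1.18 (SE 0.83) against colon. Cycs was at 66.1, 125, 64.0 and 104 CPM in colon, at 16.9, 18.3, 101.1 and 17.1 CPM in bone marrow and at 0 to 159 CPM in esophagus (median 24.8). Colon exceeded bone marrow by 1.17 on the log2 scale (SE 1.11) with overlap through mouse 7. Ndufb8, an accessory complex I subunit gene, was at 0 to 226 CPM in esophagus (median 51.2), at 19.6, 17.1, 41.2 and 166 CPM in colon and at 16.9, 36.6, 57.8 and 34.2 CPM in marrow. Sdhb was at 0 in 4 esophagus libraries and at 232 CPM in mouse 3, and in bone marrow at 42.3, 0, 14.4 and 22.8 CPM. For esophagus, Ndufb8 gave log2 fold changes of 1.11 (SE 1.01) against bone marrow and 0.38 (SE 0.95) against colon, and Sdhb 1.30 (SE 1.26) and 0.87 (SE 1.18). All of these groups overlapped. Ndufb5 and Uqcrc1, the other tested genes, had their highest values at 119 and 100.8 CPM, both in esophagus libraries. Of the untested genes, Ndufs3 reached 282 CPM in the esophagus of mouse 3, while Ndufa9, Ndufv1, Sdhc and Cyc1 stayed under 80 CPM in all libraries.

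When genes at low counts were kept, the esophagus against colon comparison held 3 called members, all lower in esophagus, as were 0.311% of the 26366 genes, beside 0.0569% higher. They were Sdha, at -6.36 on the log2 scale (SE 1.18, adjusted p = 0.000168 in edgeR), Uqcrc2, with -4.92 (SE 1.22, adjusted p = 0.0227), and Cox4i1, with -3.51 (SE 0.90, adjusted p = 0.0336). Without the colon of mouse 8 0 of the 3 were called, beside 0.019% of all genes lower and 0.0228% higher in esophagus. Sdha was then at -4.49 (SE 1.52, adjusted p = 0.222), Uqcrc2 at -1.86 (SE 1.52, adjusted p = 1.0) and Cox4i1 at 0.33 (SE 1.52, adjusted p = 1.0). Of the 3, Sdha alone did not overlap between the tissues without that library, at 0 to 12.6 CPM in esophagus against 29.7 to 74.1 CPM in colon, as were 4.72% of all genes in the same direction.

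Per length and pooled over the genes of a set, the members were not above other coding genes in most libraries. Summed counts per summed exonic kilobase of the glycolysis and hypoxia genes were divided by those of the 20242 other coding genes. These ratios were 0.709 to 3.64 with a median of 0.902, and above 1 in 5 of 15 libraries, all from esophagus. The respiratory chain genes were at 0.556 to 6.31 with a median of 0.990, above 1 in 7 libraries, and at most 1.91 outside the colon of mouse 8. The median gene gave another picture for glycolysis and hypoxia. Its counts per kilobase were 0.497 to 5.36 over the libraries (median 1.83), beside 0 to 4.65 (median 1.31) for other coding genes. For the respiratory chain they were 0 to 17.0 (median 1.33). Across the 42 members, the Spearman correlation of counts with exonic length ran from -0.0568 in the colon of mouse 8 to 0.779, with a median of 0.464 over the libraries, and across other coding genes from 0.36 to 0.834. Genes of 1 library share its depth, and these correlations are descriptions. By mean CPM per kilobase, Gapdh stood at percentile 99.45 of coding genes in esophagus, 53.6 in colon and 94.5 in marrow, Pgk1 at 99.0, 93.6 and 74.3, and Pgam1 at 97.5, 84.9 and 98.0. Cox4i1 was at percentile 70.2, 99.8 and 91.6, and Cox7a2 at 93.5, 99.8 and 96.0. Pkm, by contrast, lay at 30.0, 25.5 and 17.2. The median percentile of the glycolysis and hypoxia genes was 83.5 in esophagus, 48.6 in colon and 52.2 in marrow, and that of the respiratory chain genes 67.0, 93.9 and 51.1. In esophagus, the percentile of Cox7a2 rested on 12 counts in mouse 5, with 0 in the other 6 libraries. Of the 55 Pgam1 counts in esophagus, 35 came from mouse 3. The colon values rested in part on mouse 8. Without its library, Cox4i1 was at percentile 36.9 in colon, Cox7a2 at 1.77, Gapdh at 18.4, Pgk1 at 57.5, Pgam1 at 94.6 and Pkm at 15.1, and the set medians were 39.0 for glycolysis and hypoxia and 49.0 for the respiratory chain.

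**Figure D5:**
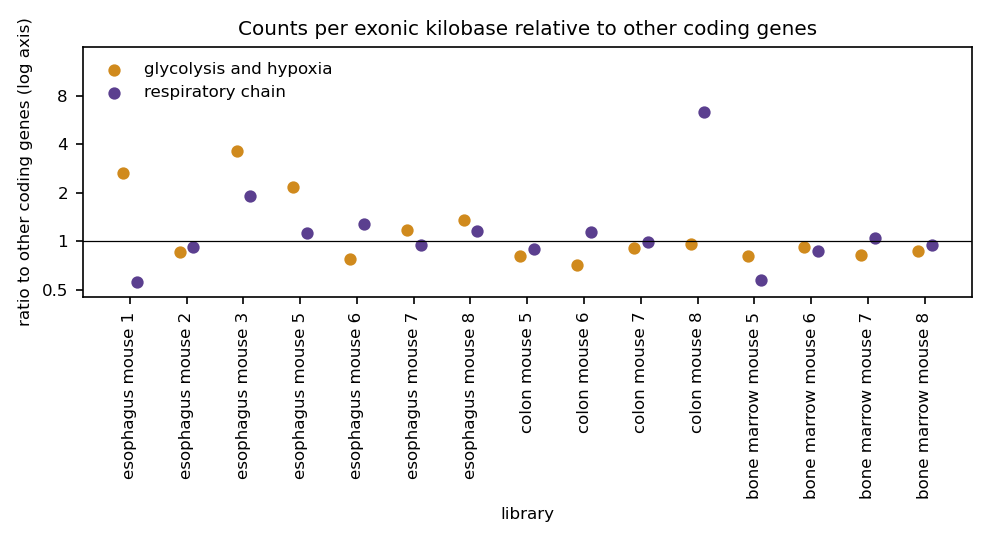
Summed counts per summed exonic kilobase of the glycolysis and hypoxia genes (orange) and the respiratory chain genes (purple), each divided by that of the other protein-coding genes of the same library, on a log axis; the line marks 1. Most libraries lie near or below 1, with glycolysis and hypoxia ratios up to 3.64 in esophagus and a respiratory chain ratio of 6.31 in the colon of mouse 8.

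Between F mice of cage 1 and M mice of cage 2, limma voom with mouse as a random block called 0 of the 23 tested members, beside 0.492% of all genes (0.425% higher in F and 0.0676% lower). At an unadjusted p under 0.05 there were also 0, beside 1.43% of all genes higher and 0.56% lower. An edgeR fit with no block also called 0. The lowest p was that of Ldha, with a log2 difference of F minus M of -2.14 (SE 1.04, adjusted p = 1.0 in limma). The edgeR test of the tissue by sex interaction called 0 members, beside 0.0483% of all genes, and 0 at an unadjusted p under 0.05, beside 2.18%. Pgk1, the X-linked member, had a difference of F minus M of -2.08 on the scale of log2(CPM + 1) relative to the tissue mean, with -0.60 ± 1.75 (SD, n = 4) in F and 1.49 ± 0.79 (n = 3) in M. The exact two-sided permutation test over the 7 mice gave p = 0.114, where the smallest that 35 splits allow is 0.0571. With a pseudocount of 10 the difference was -1.23 (exact permutation p = 0.114), and in the esophagus libraries alone it was -1.99 (exact permutation p = 0.4).

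Other genes of these pathways showed 1 call. P4ha2, a collagen prolyl hydroxylase subunit gene of the hypoxia list, was at 41.9 ± 75.6 CPM (SD, n = 7) in esophagus and 452 ± 312 CPM (n = 4) in bone marrow, which gave -3.51 on the log2 scale (SE 0.87, adjusted p = 0.0359 in edgeR). In colon it was at 40.8 ± 24.2 CPM (n = 4), with -3.42 against bone marrow (SE 1.03, adjusted p = 0.262). Its 4 bone marrow libraries held 72, 89, 47 and 28 counts, and the esophagus libraries at most 19. Of the other listed genes with a test, 0 of 13 glycolysis, 0 of 4 complex I, 0 of 2 complex II to IV, 0 of 8 ATP synthase and 0 of 7 mitochondrial biogenesis genes were called by edgeR in any tissue comparison.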

How the data were processed

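Per the labels' protocols, RNA for the 15 libraries was amplified (Ovation RNA-Seq V2) before an NEB library preparation. The authors deposited 1 table of raw counts per gene, all whole numbers. The submitters' processing notes name limma 3.50.3. No aligner, counter, genome build or strand setting is given in the sources used here, so reads of gene copies and overlapping genes may be split. Of 26366 identifiers, 26299 matched GENCODE M21, used for exonic length and gene class.

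Genes were kept by filterByExpr (minimum count 10, total 15), scaled by TMM and tested with edgeR 4.0.16 in R 4.3.3 in a single fit over all libraries (12 residual degrees of freedom, common biological coefficient of variation 0.817), adjusted by Benjamini-Hochberg. DESeq2 1.42.0 and limma 3.58.1 served as alternatives and limma for sex. The scripts were tested on simulated data. The named members were those with the largest log2 fold changes in each comparison and set, the most counts per kilobase, or X-linkage. Sdha, Uqcrc2 and the other genes given in full were chosen after their values were seen. Members and lists were chosen with earlier results of these data known. Libraries of 1 mouse are paired by the labels. As a check, residuals after removing tissue means correlated at -0.0198 to 0.0368 in 12 pairs of libraries of the same mouse and at -0.0623 to 0.0698 in 60 other pairs. Intervals leave out everything but counting error, as reads after amplification are not separate molecules.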

Additional observations from a re-analysis of the deposited data

Results flagged for a closer look

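The highest or lowest library was compared with the rest of its group in 54 groups (16 named members and the summed levels, per tissue). In 14 of the 54 it stood off by more than Dixon's 95% critical value. About 1 of 20 groups passes that value by chance only if values are normally distributed and groups are chosen without regard to them. Most named members were chosen for large fold changes or high counts per kilobase in these same libraries, and some groups hold tied values. The share of 14 in 54 therefore cannot be read against that rate, and serves to list values only. The colon of mouse 8 gave 6 of the single-gene values, with Cox4i1 at 782 CPM, Cox5a at 612 CPM, Cox6a1 at 347 CPM, Cox7a2 at 466.3 CPM, Ndufb8 at 166 CPM and Gapdh at 107 CPM. The summed respiratory chain level of that library, 4745 CPM, stood off as well, and so did the low sum of 284.5 CPM in the esophagus of mouse 1.

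The esophagus of mouse 3 stood off with Pgam1 at 353 CPM and Sdhb at 232 CPM, that of mouse 5 with Cox7a2 at 144 CPM and that of mouse 6 with Uqcrfs1 at 55.8 CPM. In bone marrow, Cycs was at 101.1 CPM in mouse 7 and Cox6a1 at 18.3 CPM in mouse 6. The Cox6a1 value rests on 2 counts where the other bone marrow libraries had 0.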

How the results depend on the processing

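Over 27 alternative settings per tissue comparison, the number of called members stayed at 0 except in 2 cases. DESeq2 called 1 glycolysis and hypoxia gene in esophagus against bone marrow, and with no filter on low counts 3 respiratory chain genes were called in esophagus against colon, or 0 when the colon of mouse 8 was also left out, a setting chosen after seeing the data. With mouse as a replicate block, fixed in edgeR or random in limma voom, 0 members were called in any tissue comparison, so it changed no member's call. Over all genes the calls in esophagus against bone marrow went from 2 higher and 84 lower to 3 and 98 with the fixed and 0 and 77 with the random block. Counts in both directions went from 45 to 80 and 14 in colon against bone marrow, and from 9 to 4 and 3 in esophagus against colon. Pfkl in esophagus against bone marrow ran from 1.80 (quality weights) to 3.39 (without the bone marrow of mouse 8), and Uqcrfs1 in esophagus against colon from -3.65 (fixed block) to -1.80 (without the 3 libraries of high mitochondrial share). Relative to the library total, the mean summed CPM of glycolysis and hypoxia genes was 792 in colon and 817 in marrow and that of respiratory chain genes 442 in bone marrow. The glycolysis and hypoxia genes held 0.07302% to 0.3268% of all counts in the esophagus libraries. They held 0.06735% to 0.08606% in those of colon and 0.07764% to 0.0878% in those of marrow. The esophagus libraries of mice 2 and 6, at 0.08135% and 0.07302%, lay within the range of the other tissues. The respiratory chain genes held 0.02753% to 0.09221% of all counts in the esophagus libraries and 0.02958% to 0.05381% in those of marrow. In colon they held 0.04599% to 0.05854% in mice 5 to 7 and 0.3041% in mouse 8. Library size alone moved the median change over all tested genes to 0.21 for esophagus and 0.23 for colon against bone marrow and to -0.03 for esophagus against colon. All genes called in esophagus against colon were 7 higher and 2 lower, 6 and 3 with upper-quartile scaling, 11 and 0 with DESeq2, and 15 and 82 with no filter.

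Directions reversed for 5 genes, and the cause was not tested beyond the settings themselves. Cox5a in colon against bone marrow was -0.034 with limma quality weights, -0.0604 without the 3 libraries of high mitochondrial share, -0.00626 with no filter and without the colon of mouse 8, and -0.0399 to 2.60 with each library left out. In esophagus against colon it was 0.67 and 0.24 under the latter settings and -2.43 to 0.39 with libraries left out. Ldha in colon against bone marrow was -0.13 and -0.0655 under the same settings and -0.14 to 1.40 with libraries left out. Under quality weights and under the random mouse block, Ndufb8 was -0.78 and -0.40 in esophagus against bone marrow and -0.63 and -0.59 against colon, and Sdhb -1.26 and -0.59, and -0.73 and -0.54. Ndufs1 in colon against bone marrow was 0.0752 with library size alone and -0.37 to 0.0373 with libraries left out. Depth limits all of these values, since the median count of a member was 3 in esophagus, 13 in colon and 5 in marrow.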
